A study of Rattus norvegicus with 23 samples.

Results

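A set of 9 genes, written here as members 1 to 9 in falling order of their level at 12 h, was higher at 12 h than at both 0 h and 24 h in differentiating rat neural stem cells. They were 9 of the 32883 genes in the count table, of which 18319 had at least 1 count. They were chosen from their measured values. For each gene, the mean CPM (counts scaled to a library total of 1000000) of the soft and of the stiff group was averaged at each time, and L was taken as the log2 of that average plus 1. A gene was kept where L at 12 h exceeded L at 0 h by 0.8 or more and L at 24 h lay 0.8 or more below L at 12 h. Genes that were 1.5 or more higher at 12 h and then fell by less than 1 were left out, as were genes with L at 36 h at least 1 above L at 12 h. The change to 12 h and the change after it are therefore a description of how the set was chosen and carry no test.

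The cells were neural stem cells from the hippocampus of adult female rats, WT (wild-type) in genotype. All groups had the same mixed differentiation medium, which was DMEM-F12 with N2, 1% FBS (fetal bovine serum) and retinoic acid at 1 uM, and differed in the substrate, soft or stiff, and in the time, 0, 12, 24 or 36 h. There were 3 libraries in each of 8 groups, except 2 for soft at 12 h, 23 libraries in all. The sources used here give neither the stiffness of either substrate nor the state of the cells at 0 h. Nothing in the labels says that replicates came from different cultures or animals, and the p-values then reflect the spread between libraries, which may be technical.

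As background, a change of medium sets off gene expression in waves. Retinoic acid enters the nucleus and acts through its receptors, which bind DNA as pairs with retinoid X receptors, and serum brings growth factors that act through kinase cascades. Some responding transcripts stay high, whereas others are high for a limited time, as feedback inhibitors of the pathway build up and as unstable messages decay. Which of these routes, if any, the 9 genes belong to cannot be read from the files. The count table gives Ensembl rat identifiers without names, and 0 of 32883 matched the RefSeq gene table used here (assembly GRCr8). No role is therefore stated for any member, the labelled cell type could not be checked against its markers, and no promoter could be matched.

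Library totals ran from 2462360 to 6811157 counts. At 12 h the soft libraries were deeper, with 5428086 and 6519349 counts, than the stiff ones, with 2462360 to 4803755, so that 1 count was worth 0.147 to 0.406 CPM over all libraries. Members 1 and 2 were abundant and members 6 to 9 had few counts, at most 94 in any library. The 9 members together held 0.0536% to 0.0736% of the counts of a library at 0 h and 0.173% to 0.242% at 12 h.

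Few of the genes that were higher at 12 h fell by 0.8 or more in L by 24 h. Before the exclusions 11 of them did so. Among the 11857 genes that passed the filter on low counts, whatever their change to 12 h, 4.08% fell that far. Of the 541 genes with L at 12 h at least 0.8 above L at 0 h, 412 were higher still at 24 h, 129 were lower, and 9 (1.66%) were members. The median change from 12 h to 24 h over the 541 was 0.36 in L. The members' own change to 12 h ran from 0.85 to 3.37 with a median of 1.10, and their change from 12 h to 24 h from -1.41 to -0.86 with a median of -1.26. Over the 11857 genes that passed the filter on low counts, both medians were near 0, at -0.02 and 0.07. These values were used to choose the members and are given as a description.

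**Figure D1:**
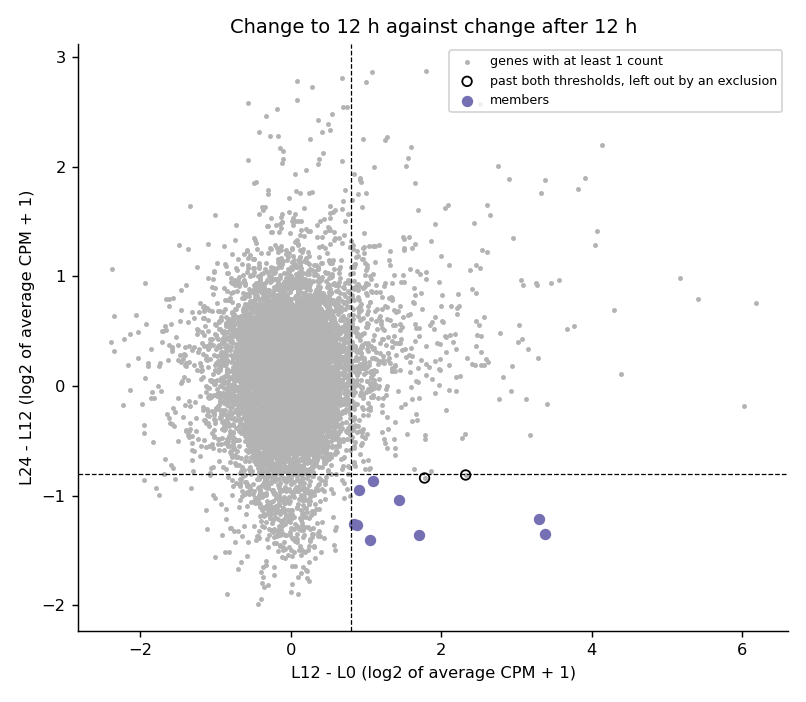
Each point is a gene with at least 1 count, with L at 12 h minus L at 0 h on the x axis and L at 24 h minus L at 12 h on the y axis (log2 of average CPM + 1), and dashed lines mark 0.8 and -0.8. The 9 members lie in the lower right, 7 of them between 0.8 and 1.7 on the x axis and members 1 and 6 beyond 3.3, and 2 circled genes were left out by an exclusion.

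The genes just outside the thresholds were of low level, whereas the members just inside were not all so. For the change to 12 h, members 2 and 4 were just inside, at 0.85 and 0.88, with 794 and 26.2 CPM at 12 h. The genes just outside that limit were at 0.79 and 0.76 with 2.37 and 2.59 CPM at 12 h. For the change after 12 h, members 9 and 8 were just inside, at -0.86 and -0.95, with 1.46 and 3.44 CPM at 12 h. The genes just outside were at -0.76 and -0.75 with 3.74 and 2.46 CPM at 12 h. The 2 genes left out by an exclusion reached 8.85 and 19.1 CPM at 12 h and had changes of -0.84 and -0.81 after it. Without stiff 12 h replicate 1 the rule found 14 genes, all 9 members among them, whereas without soft 12 h replicate 1 or 3 it found 11 and 13 genes with 6 and 7 of the members.

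Members 1 and 6 had the highest rise to 12 h and were still well above their starting level at 36 h. Member 1, ENSRNOG00000057710, was the most abundant of the set at 12 h and is named because of its values, outside the rule for named genes. On soft, in order of replicate number, the 0 h libraries had 89.4, 85.2 and 135 CPM, the 12 h libraries (replicates 1 and 3) 1324 and 1074, the 24 h libraries 373, 565 and 423, and the 36 h libraries 291, 440 and 293. On stiff, the 0 h libraries had 111, 119 and 142 CPM, the 12 h libraries 1002, 1306 and 863, the 24 h libraries 317, 659 and 587, and the 36 h libraries 278, 601 and 519. Every library at 12 h lay above all libraries of the other times, and every library at 24 h and 36 h lay above all at 0 h. The average over substrates was 9.93-fold higher at 12 h than at 0 h, 2.32-fold higher than at 24 h, and at 36 h it was still 3.56-fold above 0 h. Of the gain made by 12 h, 36.8% was left at 24 h and 28.6% at 36 h.

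Member 6 followed a like course at a much lower level. At 0 h it had 9 counts over the 3 soft libraries and 4 over the 3 stiff ones, with 2 libraries at 0. At 12 h soft replicates 1 and 3 had 94 and 78 counts (17.3 and 12 CPM), and stiff replicates 1, 2 and 3 had 68, 39 and 27 (14.2, 15.8 and 9.06 CPM). At 24 h all libraries lay between 3.35 and 7.12 CPM, and at 36 h between 1.78 and 4.42 CPM, in each case above the highest value at 0 h, 1.21 CPM. The average was 32.1-fold higher at 12 h than at 0 h, a ratio that rests on 13 counts at 0 h, and 32.8% of the gain was left at 24 h and 22.5% at 36 h. The word transient thus holds only in part for members 1 and 6. By the averages, member 5 also had 28.7% of its gain left at 36 h. Its libraries there, from 4.58 to 10.4 CPM, overlapped those at 0 h, from 1.93 to 6.48 CPM.

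Members 2 and 3 passed below their starting level after 12 h. For member 2, ENSRNOG00000031431, the soft libraries in the same order had 439, 415 and 544 CPM at 0 h. The 12 h libraries had 931 and 772, the 24 h libraries 332, 269 and 318, and the 36 h libraries 141, 181 and 121. On stiff, the 0 h libraries had 460, 354 and 437 CPM, the 12 h libraries 765, 725 and 718, the 24 h libraries 324, 400 and 343, and the 36 h libraries 132, 213 and 180. All 5 libraries at 12 h were above all others, and all 6 at 36 h were below all others. The 12 h average was 1.80-fold that at 0 h and 2.40-fold that at 24 h, and the 0 h average was 2.74-fold that at 36 h.

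Member 3 had the same order of times at a lower level. Its libraries ranged from 37.2 to 50.7 CPM at 0 h (median 43.4), from 82.7 to 105 at 12 h (median 91.6), from 25.9 to 48 at 24 h (median 29.6) and from 12.2 to 22.6 at 36 h (median 17.8). The libraries at 12 h were clear of those at every other time, and those at 36 h lay below all at 0 h and 24 h, while 0 h and 24 h overlapped. The 12 h average was 2.1-fold that at 0 h and 2.70-fold that at 24 h, and the 0 h average was 2.46-fold that at 36 h.

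In members 4 and 7 the libraries at 24 h and 36 h overlapped those at 0 h. For member 4, ENSRNOG00000031397, the soft libraries in order of replicate number had 17, 8.35 and 14.5 CPM at 0 h. The 12 h libraries had 28 and 21.5, the 24 h libraries 13, 13.4 and 7.8, and the 36 h libraries 7.12, 13.8 and 8.55. On stiff, the 0 h libraries had 15.6, 13.6 and 13.4 CPM, the 12 h libraries 32.3, 24 and 26.8, the 24 h libraries 12.8, 5.33 and 9.65, and the 36 h libraries 12.2, 13.6 and 5.66. The 12 h libraries were all above the rest, and the other 3 times overlapped. Its average was 1.91-fold higher at 12 h than at 0 h and 2.54-fold higher than at 24 h. Member 7 had 8 to 30 counts in each 12 h library, or 3.25 to 5.53 CPM, which was above every library of the other times. At 0 h its libraries held 0 to 9 counts, at 24 h 0 to 12 and at 36 h 1 to 10, with 4 libraries at 0 in all, so its levels outside 12 h overlapped and are known with little precision.

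Members 5, 8 and 9 met the rule on the averages but did not peak in every library. Member 5 stood at 22.2 CPM in soft replicate 3 at 12 h and at 15 and 22.1 CPM in stiff replicates 2 and 3. In replicate 1 it was at 7.37 CPM on soft and 6.45 CPM on stiff at 12 h, against 7.99 and 7.46 CPM at 24 h. Over all times and substrates its other libraries ran from 1.93 to 10.4 CPM, so replicate 1 showed no fall after 12 h and its 12 h libraries overlapped those at 0 h, 24 h and 36 h.

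Member 8, ENSRNOG00000056434, peaked on soft. Soft replicates 1 and 3 had 5.16 and 3.68 CPM at 12 h, from 28 and 24 counts. Soft replicates 1, 2 and 3 had 1.37, 1.77 and 0 CPM in the 0 h libraries, 1.8, 1.47 and 0 in the 24 h libraries, and 0.89, 1.57 and 0.389 in the 36 h libraries. On stiff, the 0 h libraries had 1.77, 1.23 and 2.11 CPM, the 12 h libraries 1.87, 2.84 and 2.68, the 24 h libraries 1.98, 0.761 and 1.84, and the 36 h libraries 1.53, 2.31 and 0.848. The soft libraries at 12 h were above all others, whereas the stiff ones, with 7 to 9 counts each, overlapped those of the other times. Member 9 was the only one that did not pass the filter on low counts. Its 12 h average leaned on soft replicate 3, with 20 counts (3.07 CPM). The other 12 h libraries had 2 to 6 counts (0.671 to 1.11 CPM), and libraries at the other times had 0 to 6. At 0 h on stiff it had 0 counts, which allows up to 0.167 CPM over the group (3 counts, counting error only).

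In 6 of the 9 members every 12 h library lay above every 0 h and every 24 h library. Over the 18319 genes with a count this was so for 0.617%. The rule used the same contrast, so the 2 shares cannot be set against each other. Taken singly, every 12 h library was above every 0 h library in 7 members (6.08% of the 18319 genes) and above every 24 h library in 6 (7.45%).

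**Figure D2:**
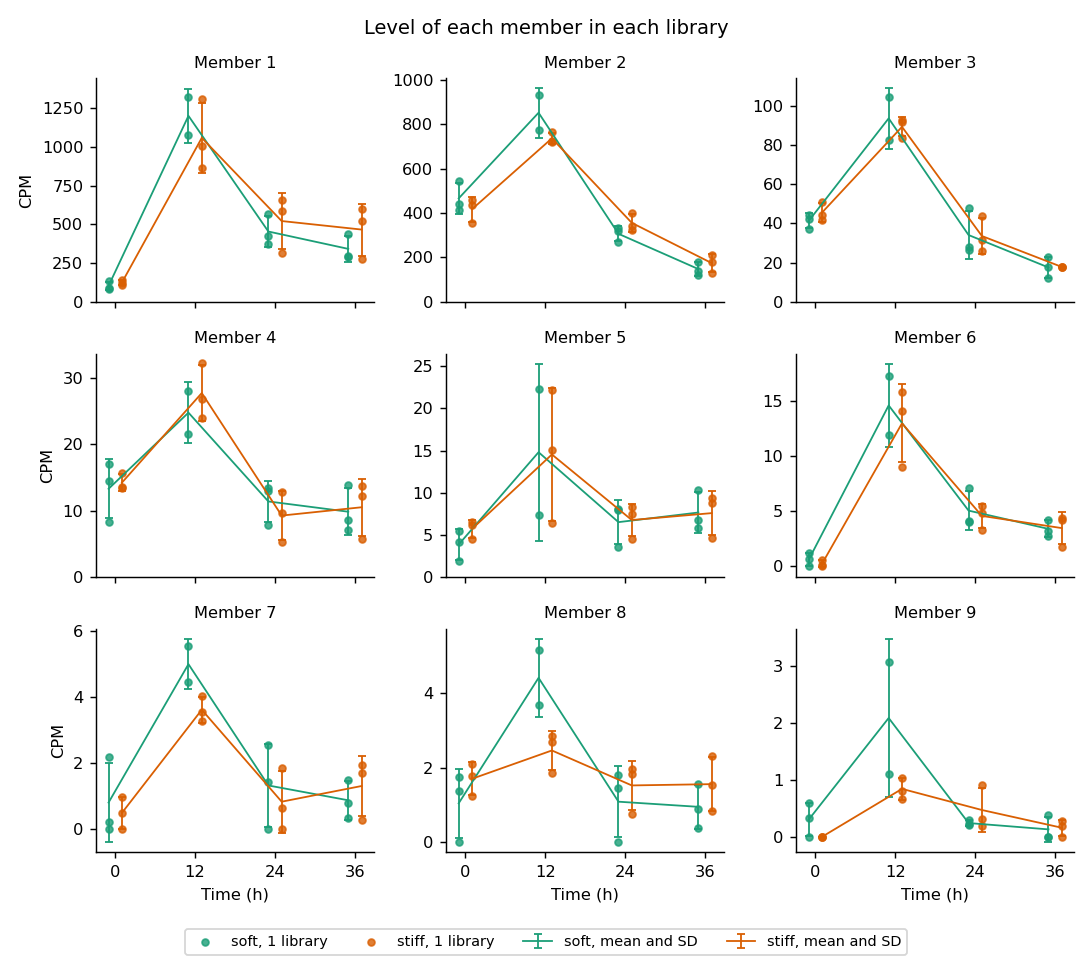
CPM of each member (y axis, linear, a separate scale per panel) at each time in hours (x axis), with 1 point per library, soft in green and stiff in orange, and lines and bars for the mean and SD (n = 3, and 2 for soft at 12 h). In members 1, 2, 3, 4, 6 and 7 all 12 h points lie above those at 0 h and 24 h, whereas in members 5, 8 and 9 they overlap with at least 1 of them.

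The later course was followed from 24 h to 36 h. From 24 h to 36 h the average was lower in 7 members and higher in 2, with changes in L from -1.03 to 0.17. edgeR's quasi-likelihood test, averaged over substrates, called 2 of the 8 members that passed the filter, members 2 and 3, both lower at 36 h. Among all tested genes 19.9% were called, 9.81% higher and 10.1% lower. The log2 fold changes of members 2 and 3 were -1.02 (SE 0.101) and -0.91 (SE 0.146), against a median absolute change of 0.18 over all tested genes. The 24 h level was used in choosing the members, so these counts are a description.

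Set against 0 h, the level at 36 h differed in direction among the members. Members 1 and 6 were called higher, by 1.81 (SE 0.167) and 3.17 (SE 0.454) on the log2 scale, and members 2 and 3 lower, at -1.47 (SE 0.102) and -1.30 (SE 0.144). All 36 h libraries lay above all 0 h libraries in members 1 and 6 (15.5% of genes with a count did so) and below them in members 2 and 3 (13.8%). The other tested members, 4, 5, 7 and 8, had log2 fold changes of -0.40 (SE 0.211), 0.66 (SE 0.309), 0.81 (SE 0.779) and -0.08 (SE 0.488) and were not called. The 4 called members of 8 compare with 67.2% of all tested genes, 34.2% higher and 33% lower. At these shares neither the calls nor the libraries that did not overlap are a result about the members. The 0 h level was also used in choosing the members, and the grouping into 3 courses was made after their values were seen.

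**Figure D3:**
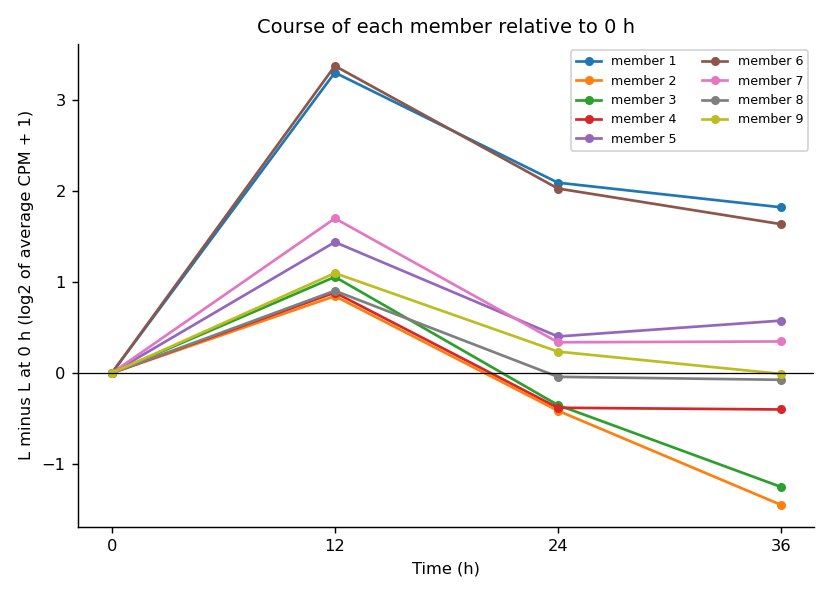
L of each member minus its L at 0 h (y axis, log2 of average CPM + 1, substrates averaged) at 0, 12, 24 and 36 h (x axis), with 1 line per member. Members 1 and 6 end 1.82 and 1.64 above 0 h, members 2 and 3 end at -1.45 and -1.25, and the other members lie between -0.40 and 0.58.

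The difference between substrates was not what the rule used, although a gene could pass it through 1 substrate alone. Applied to the soft libraries alone the rule found 34 genes, and to the stiff libraries alone 21. The 2 lists shared 7 genes, 20.6% of the soft list and 33.3% of the stiff one. The rule held on soft for all 9 members and on stiff for 7, with members 8 and 9 as the exceptions. On stiff, member 8 changed by 0.36 in L up to 12 h and by -0.46 after it, against 1.41 and -1.38 on soft. For member 9 these values were 0.88 and -0.32 on stiff and 1.24 and -1.31 on soft.

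The substrates were compared at 12 h in the 8 members that passed the filter on low counts. By edgeR's quasi-likelihood test, Benjamini-Hochberg adjusted, 0 of 8 members were called, and 0 had an unadjusted p under 0.05. DESeq2 also called 0, but it gave no adjusted p for member 8 and so could not call that member. Among all tested genes 6.6% were called by edgeR. At that share 0 of 8 is not a result about the members. Adjusted p-values of the members ran from 0.374 to 0.905. The gene with the smallest p was ENSRNOG00000031431, with 851 ± 112 CPM on soft (SD, n = 2) and 736 ± 25.5 CPM on stiff (SD, n = 3), a log2 fold change of -0.25 (SE 0.151). The stiff level was 0.840 of the soft level with a 95% interval of 0.679 to 1.04. ENSRNOG00000057710 was at 1199 ± 176 and 1057 ± 227 CPM on soft and stiff, and the interval of its ratio was 0.607 to 1.20. For member 3 the interval was 0.713 to 1.21. The intervals of members 4, 5 and 6 were 0.735 to 1.66, 0.514 to 1.63 and 0.516 to 1.45. In these 6 members a difference of 2-fold between substrates at 12 h therefore lay outside the interval. For members 5 and 6 it was only just outside at the lower end.

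Members 7 and 8, of low level, were less well bounded. For member 7 the interval of the ratio was 0.246 to 2.03. ENSRNOG00000056434 was at 4.42 ± 1.04 CPM on soft and 2.47 ± 0.52 CPM on stiff at 12 h. Its log2 fold change was -0.91 (SE 0.615), with a 95% interval of the ratio from 0.223 to 1.26. All 3 stiff libraries lay below both soft ones. This member met the rule on soft and not on stiff, so its high soft values at 12 h are part of why it was chosen. That order is therefore a description. ENSRNOG00000031397 was the only tested member with a higher fitted level on stiff, by 0.14 (SE 0.288) on the log2 scale, at 27.7 ± 4.22 CPM against 24.7 ± 4.62 CPM on soft. Without soft 12 h replicate 3 its log2 fold change was -0.07.

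Of all 9 members, 8 had their highest 12 h value in 1 of the 2 soft libraries, 6 of them in soft replicate 1. The same count over all genes is not given. By the fitted level at 12 h, 7 of the 8 tested members and 54.2% of all tested genes were lower on stiff. The median log2 fold changes were -0.22 in the members and -0.03 in all tested genes. The 12 h values chose the members, so these counts are a description. The soft libraries were also the deepest at 12 h, and the part of depth in the order was not tested.

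The size of the peak was also compared between substrates. For the change from 0 h to 12 h, stiff minus soft, edgeR called 0 of 8 members against 1.87% of all tested genes. An unadjusted p under 0.05 was reached by 0 members, and DESeq2 called 0. For the change from 12 h to 24 h it called 0 of 8 against 4.44%, and DESeq2 also called 0. An unadjusted p under 0.05 was reached by 1 member. That member was ENSRNOG00000031431, whose change after 12 h was less negative on stiff, by a log2 difference of 0.47 (SE 0.204, Benjamini-Hochberg adjusted p = 0.216 by edgeR). These comparisons share the 12 h libraries with that of the levels. With no filter on low counts, member 1 was called for the change to 12 h and members 1 and 2 for the change after it. That fit gave far smaller p-values for members 1 and 2 at like fold changes, so these calls are not read as a difference between substrates.

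**Figure D4:**
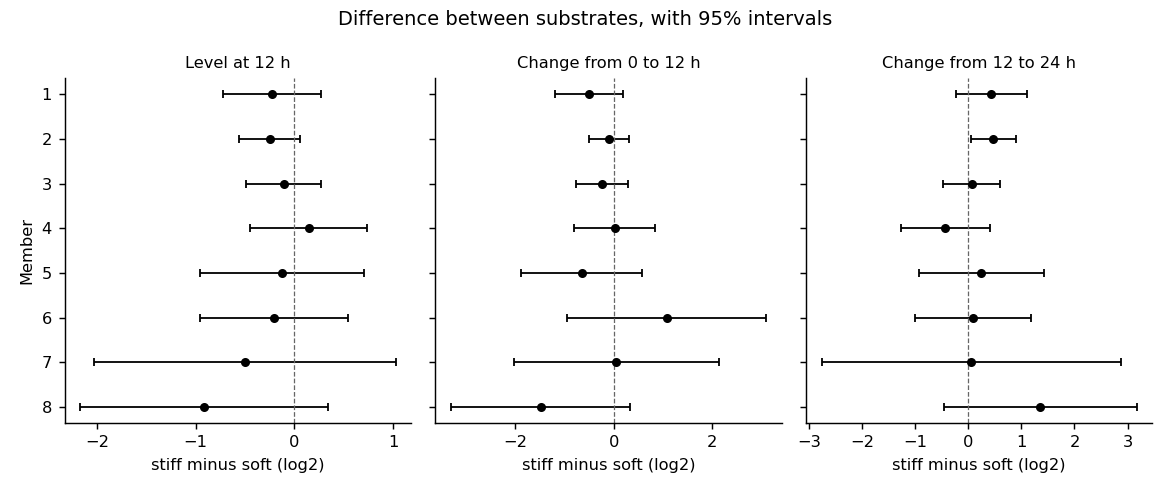
Fitted stiff minus soft difference (x axis, log2) of each of the 8 tested members (y axis) in the level at 12 h, in the change from 0 h to 12 h and in the change from 12 h to 24 h, with points for the estimate and bars for its 95% interval. The intervals all include 0 except that of member 2 in the change from 12 h to 24 h, and the widest in each panel is that of member 7.

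The substrates were also compared at the other times. edgeR's test called 0 of 8 members at 0 h, where 0% of all tested genes were called, 0 at 24 h (0%) and 0 at 36 h (0.0675%). These counts are near the background share, and nothing about the members is read from them. An unadjusted p under 0.05 was reached by 0 members at each of these times, and DESeq2 called 0 at each. At 36 h ENSRNOG00000057710 was at 342 ± 85.1 CPM on soft and 466 ± 168 CPM on stiff (SD, n = 3 each). Its log2 fold change was 0.46 (SE 0.225, Benjamini-Hochberg adjusted p = 0.709 by edgeR). The groups overlapped, since stiff replicate 1 had 278 CPM, below all 3 soft libraries. With no filter on low counts member 1 was called at 36 h, a call that is likewise not read as a difference between substrates.

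The peak was followed through each replicate number, which the titles write as Rd1 to Rd3, and substrate. A course through 0, 12 and 24 h could be formed in 5 cases, soft replicates 1 and 3 and stiff replicates 1 to 3. Libraries were joined by number only to describe them, and the number was not taken to pair the samples. Averages of these same libraries chose the members, so the counts below are a description and no support for the peak. The share over all genes is not given. The change to 12 h was above 0 in all 5 for all 9 members. The change after 12 h was below 0 in all 5 for 7 members, in 4 for member 8 and in 3 for member 5. A change of 0.8 or more in both directions was reached in 4 of 5 cases by members 1, 3 and 7, in 3 by members 5 and 6, in 2 by members 2, 4 and 8, and in 1 by member 9. For member 1 the change to 12 h ranged from 2.60 to 3.87 and the change after it from -1.83 to -0.56.

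The rule was also applied with 1 replicate number left out and the genes so found were read in the libraries left out. Without replicates numbered 1, 2 or 3 it found 21, 11 and 18 genes, 7 of which were members each time. In the libraries left out, 14 of 21, 10 of 11 and 15 of 18 were up at 12 h and down at 24 h, against 20%, 23.8% and 20.5% of all tested genes. Both changes reached 0.8 there in 4, 5 and 3 genes, against 0.194%, 0.759% and 0.202% of all tested genes. The genes found were not filtered on low counts, whereas both sets of percentages cover tested genes only. Most genes found were not members in 2 of these lists, and the libraries left out also helped to choose the members. The counts are therefore a description and no support for the peak of the members. Over all 32883 genes, 31, 175 and 36 reached 0.8 in both changes. The median change to 12 h in the libraries left out was 0.40, 1.06 and 0.69, and the median change after it -0.33, -0.86 and -0.72. For number 2 the only 12 h library left out was a stiff one, set against averages of soft and stiff at 0 h and 24 h.

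Spread between replicates was larger in the members than in most genes. The biological coefficient of variation that edgeR estimated was above the median of all tested genes, 0.113, in all 8 tested members. It ran from 0.121 in member 2 and 0.144 in member 3 to 0.612 in member 7. Genes of low level were not set apart in this ranking, and members 7 and 8 were among the least abundant genes tested.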

How the data were processed

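The table deposited by the authors holds raw counts of reads per gene in whole numbers. Per the labels' protocols, total RNA came from cell pellets and the library kit was QuantSeq FWD, a 3' end method, so isoforms that end alike are not told apart. Build rn6, HISAT2 2.1.0, HTSeq and FastQC are named in the submitters' processing notes. For the annotation release and strand setting nothing is stated, and overlapping genes or near-identical copies may share reads.

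CPM values printed here use library totals. Tests used edgeR 4.0.16 (R 4.3.3, quasi-likelihood F test, TMM factors) on 1 fit of 8 groups to all 23 libraries, after filterByExpr (minimum count 10, minimum total 15), with Benjamini-Hochberg adjustment over 11857 genes and calls at 0.05. Replicate pairs differed by more than sampling noise (chi-square per degree of freedom 2.42 to 9.11). The tests were tried on simulated data. Alternatives were RLE factors, other filters, DESeq2 1.42.0, a replicate block, the compared groups alone, and libraries left out. Unscaled totals and RLE-scaled CPM were added after the data were seen.

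Members and lists were chosen with earlier results of these data known. The rule for named genes, absent names, was by smallest p for stiff against soft at 12 h among members, at most 2 in each direction. This gave 1 higher and 2 lower. The 20 gene lists and the cell type markers could not be used.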

Additional observations from a re-analysis of the deposited data

How the results depend on the processing

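The number of members depended on the settings of the rule. It was 9 as given, 34 on soft libraries alone, 21 on stiff libraries alone, 22 with 0.5 and 3 with 5 added before the log, and 21 with thresholds of 0.7 and 6 with 0.9. It was 21 and 18 without the libraries of replicate 1 or 3. With each library left out in turn it ran from 8 to 14, the highest without stiff 12 h replicate 1, and at least 6 of the 9 were found each time. With 5 added, only the 3 most abundant members were left, and with CPM from TMM-scaled totals all 9 were found among 13. All 9 were higher at 12 h than at 0 h and 24 h under all 4 scalings (totals, TMM, RLE, upper quartile). The members were chosen for such changes on totals, and the scalings moved the smallest of them little. This outcome was therefore largely set by the choice and is a description. With no filter on low counts, 1 member was called for stiff against soft at 36 h, 1 for the change to 12 h and 2 for the change after it (members 1 and 2). Leaving out any library changed none of the counts of 0 between substrates. With a library left out, the 2 members called from 24 h to 36 h stayed 2, and the 4 called from 0 h to 36 h became at most 5. With no filter these counts were 3 and 6. For member 1 from 0 h to 36 h, edgeR's adjusted p was 2.27e-160 without the filter and 2.57e-11 with it. Its log2 fold change was 1.81 in both. The extra calls without the filter are therefore not read as results.

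For ENSRNOG00000031397 stiff minus soft at 12 h was -0.0691 (without soft 12 h replicate 3) to 0.38 with a library left out, and for ENSRNOG00000056434 the change from 0 h to 36 h was -0.42 to 0.22. The cause was not tested. The titles write the replicate number as Rd1 to Rd3 and do not say what it marks. It was not taken to pair the samples, since not every pair's correlation was above 0.1. Deviations of same-numbered soft and stiff libraries correlated at -0.0279 to 0.149, above 0.1 in 4 of 11 pairs. Even so, 19 of 22 libraries correlated best with their own number, among the 2 or 3 libraries of the other substrate at that time. That is a hint of pairing from the data and not the design. With the replicate number as a block, 0 members were called between substrates at any time or in either change, 2 from 24 h to 36 h and 5 from 0 h to 36 h, and 1 member had an unadjusted p under 0.05 for the difference between substrates in the change to 12 h, against 0 without the block. The number of members with an unadjusted p under 0.05 by edgeR was also 2 with the block and 1 without for the change after 12 h. At 36 h it was 1 with the block and 0 without. The difference of ENSRNOG00000057710 at 12 h was -0.37 with the block and -0.23 without. Depth limits members 6 to 9, whose values rest on few counts.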

Other observations

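The mirror course was seen in more genes than the peak, at the same thresholds and before any exclusion. Of 446 genes with L at 12 h at least 0.8 below L at 0 h, 26 had regained 0.8 or more by 24 h, whereas 11 of 541 genes followed the course up and then down. The average over substrates enters both counts, and no test was made of the difference between them.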
